A study of Bos taurus with 3 samples.

Results

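The cells described here are called G2/M mitotic epithelial cells of the newborn calf rumen and were chosen by the transcripts they carried. A kept barcode held 500 to 4000 genes, at most 50000 UMIs (unique molecular identifiers, 1 per captured transcript) and at most 40% of its UMIs in the 13 mitochondrial coding genes. It was epithelial where KRT5, KRT14 and KRT15 together reached 10 per 10000 UMIs and no UMI of PTPRC, PECAM1 or COL3A1 was present. It was mitotic where MKI67, TOP2A, CENPF, UBE2C and TPX2 together reached 10 per 10000 and KRTDAP stayed under 10 per 10000. The rule found 1268 cells among 21884 epithelial cells, 26020 kept barcodes and 31228 deposited barcodes. Of the 1268, 559 were also rich in S-phase genes by a threshold given below, so the name was not shown for each cell. The tissue was the ventral rumen sac of 3 newborn Holstein calves, taken 1 day after birth, freed of its outer muscle and dissociated with enzymes. Each calf gave 1 droplet library of the 10x Chromium 3′ v3 chemistry. The calves form a single group with no treatment, so every comparison set classes of cells against each other within each calf. The libraries held 82263092 UMIs in 7529 barcodes for calf 1, 89803289 in 12043 for calf 2 and 106145091 in 11656 for calf 3.

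The rumen is lined by a stratified squamous epithelium that is renewed from its basal layer, where cells divide before their daughters move up and keratinise. A dividing cell copies its DNA in S phase, passes through G2 and then condenses and separates its chromosomes on a microtubule spindle in mitosis. Cyclin B with its kinase CDK1 drives entry into mitosis, and the anaphase-promoting complex ends it by marking cyclin B and securin for destruction.

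The mitotic cells numbered 683 of 4637 epithelial cells in calf 1, 203 of 9122 in calf 2 and 382 of 8125 in calf 3. Their share was 14.7% in calf 1 (exact Clopper-Pearson 95% interval 13.7 to 15.8), 2.23% in calf 2 (1.93 to 2.55) and 4.70% in calf 3 (4.25 to 5.18), with a mean of 7.22% ± 6.62 (SD, n = 3). The 3 intervals did not overlap, and calf 1 held the highest share. Those intervals cover counting error only. Without calf 1 the mean share was 3.46%. Without the limit of 4000 genes the shares were 21.1% in calf 1, 2.42% in calf 2 and 6.39% in calf 3.

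**Figure D1:**
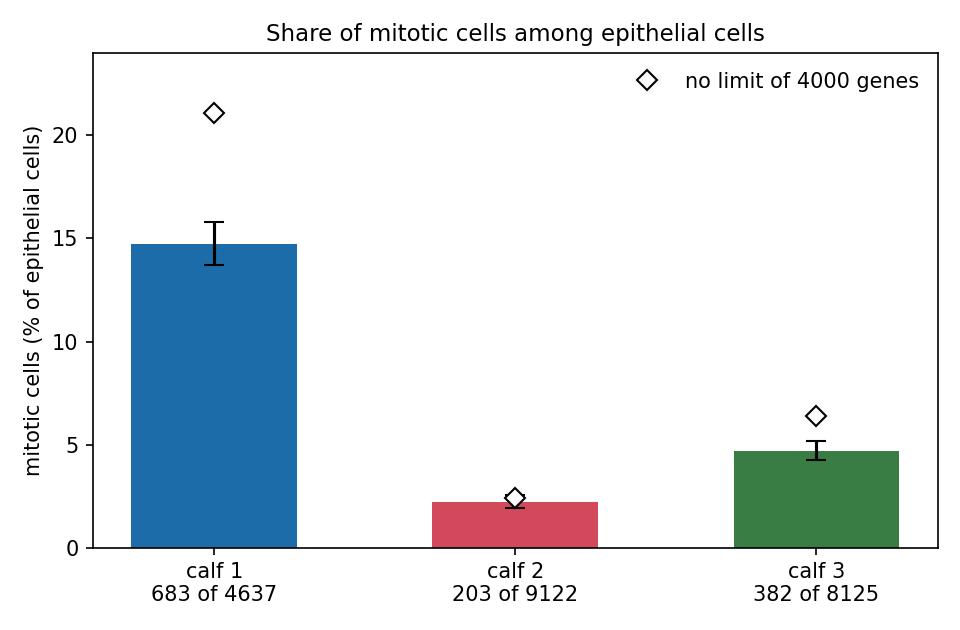
The bars give the percentage of epithelial cells that were mitotic in each calf, with exact 95% binomial intervals, and the open diamonds give the same percentage without the limit of 4000 genes. Calf 1 had the highest bar at 14.7% and calf 2 the lowest at 2.23%.

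The 5 genes that chose the cells are given as a description only. MKI67, a coat protein of mitotic chromosomes, stood at 3.30, 4.07 and 4.86 UMIs per 10000 in the summed mitotic cells of calves 1, 2 and 3, and CENPF, a kinetochore-associated protein, at 10.5, 14.2 and 10.3. TOP2A, which untangles sister chromatids, stood at 7.67, 7.58 and 7.51. All 5 genes were detected in 66.6%, 60.1% and 68.8% of the mitotic cells of calves 1, 2 and 3, and a single one in 1.32%, 3.94% and 3.14%. The 5-gene sum was a continuous measure, with median 24.1, 29.8 and 23.9 per 10000 in the mitotic cells. The highest sums outside the threshold were 9.99, 9.69 and 9.97 per 10000 and the lowest inside it 10.04, 10.01 and 10.07. Sums from 9 to 10 were found in 29, 8 and 17 epithelial cells and sums from 10 to 11 in 31, 10 and 20. Among the other epithelial cells, 68.5%, 91.8% and 84.3% held no UMI of the 5 genes. KRTDAP kept 11, 3 and 1 cells that passed the 5-gene threshold out of the class. KRT5, a basal keratin, stood at 48.5, 73.4 and 39.6 per 10000 in the mitotic cells and at 53.1, 47.2 and 42.0 in the other epithelial cells, and KRT15 at 80.9, 110 and 65.6 against 120, 126 and 104. KRT14, the partner of KRT5, stood at 14.1, 38.2 and 21.4 against 11.3, 16.0 and 12.4.

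The mitotic cells were the deeper class in every calf. Their median depth was 13637, 10363 and 12946.5 UMIs in calves 1, 2 and 3, against 10028, 6761 and 7947 in the other epithelial cells. Their median number of genes was 3174, 2513 and 3161.5 against 2315.5, 1703 and 2085. With each cell thinned to 2000 UMIs, the medians were 892, 846 and 910 genes against 777.5, 731 and 802. The mitochondrial coding genes took 8.86%, 10.3% and 11.1% of the summed UMIs of mitotic cells against 6.12%, 7.06% and 6.57% in the other cells. The part of depth and of mitochondrial transcripts in the results was not tested. Scrublet scores marked 44, 4 and 25 of the mitotic cells as doublets (6.44%, 1.97% and 6.54%), against 3.46%, 8.63% and 8.24% of the other epithelial cells, and these were kept. The libraries of calves 1 and 2 shared 21 barcode sequences, those of calves 1 and 3 shared 29 and those of calves 2 and 3 shared 37, and none of these was a mitotic cell in both libraries. The same 5-gene threshold was passed by 0 of 38, 2 of 267 and 8 of 482 endothelial barcodes (exact 95% upper limit 9.25% for calf 1). Immune barcodes passed it in 0 of 5, 1 of 20 and 13 of 319, with upper limits of 52.2%, 24.9% and 6.87%, and fibroblast barcodes in 0 of 7, 2 of 140 and 3 of 219, with upper limits of 41.0%, 5.07% and 3.95%.

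The label was checked on 10 other G2/M genes that the rule did not read. At least 1 of CCNB1, CCNB2, CDK1, CDC20, PLK1, AURKA, BUB1, CENPE, HMMR and NUSAP1 was detected in 96.8%, 95.1% and 96.3% of the mitotic cells and in 30.3%, 10.0% and 20.7% of the other epithelial cells. After thinning to 2000 UMIs the shares were 86.0%, 84.6% and 84.0% against 10.1%, 3.06% and 5.82%. In the mitotic cells that were also rich in S-phase genes they were 87.5%, 89.1% and 82.2%. The check therefore does not show that a cell had left S phase. Endothelial barcodes, with median depths of 4657, 4456 and 5561 UMIs, gave 0%, 4.60% and 6.58% after thinning. Too shallow to thin were 24, 8 and 14 mitotic and 116, 235 and 183 other epithelial cells. The epithelial adhesion gene EPCAM, chosen after its values were seen, was detected in 38.4%, 31.8% and 32.3% of the thinned mitotic cells (87.1%, 83.7% and 78.3% unthinned), in 29.3%, 26.9% and 20.3% of the other epithelial cells (77.6%, 64.2% and 58.7% unthinned) and in 2.63%, 0.766% and 0.637% of endothelial barcodes.

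The first comparison asked which genes distinguish mitotic cells from the other epithelial cells of the same calf. Among 12311 genes tested, 1721 were higher in the mitotic cells (14% of genes tested) and 1855 were lower (15.1%) at an adjusted p under 0.05. Of these, 1719 and 1741 moved the same way in 3 of 3 calves. Log2 differences are scaled by TMM factors, which were 1.08, 1.02 and 1.11 in the mitotic sums and 0.937, 0.851 and 1.03 in the others, so a log2 difference need not equal the log2 ratio of the levels. The median log2 difference over all genes tested was -0.036. Fewer genes passed without calf 2 (1128 higher and 1187 lower), without calf 3 (951 and 1087) and with every cell thinned to 2000 UMIs (862 and 902), and 296 and 105 passed without the calf as a block. Cells were chosen by 5 cell-cycle genes, so cell-cycle genes that vary with those 5 are not independent of the choice. With each cell's UMIs split into 2 random parts, 1 to choose the cells and 1 to count, 1383 genes were higher and 1511 lower.

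**Figure D2:**
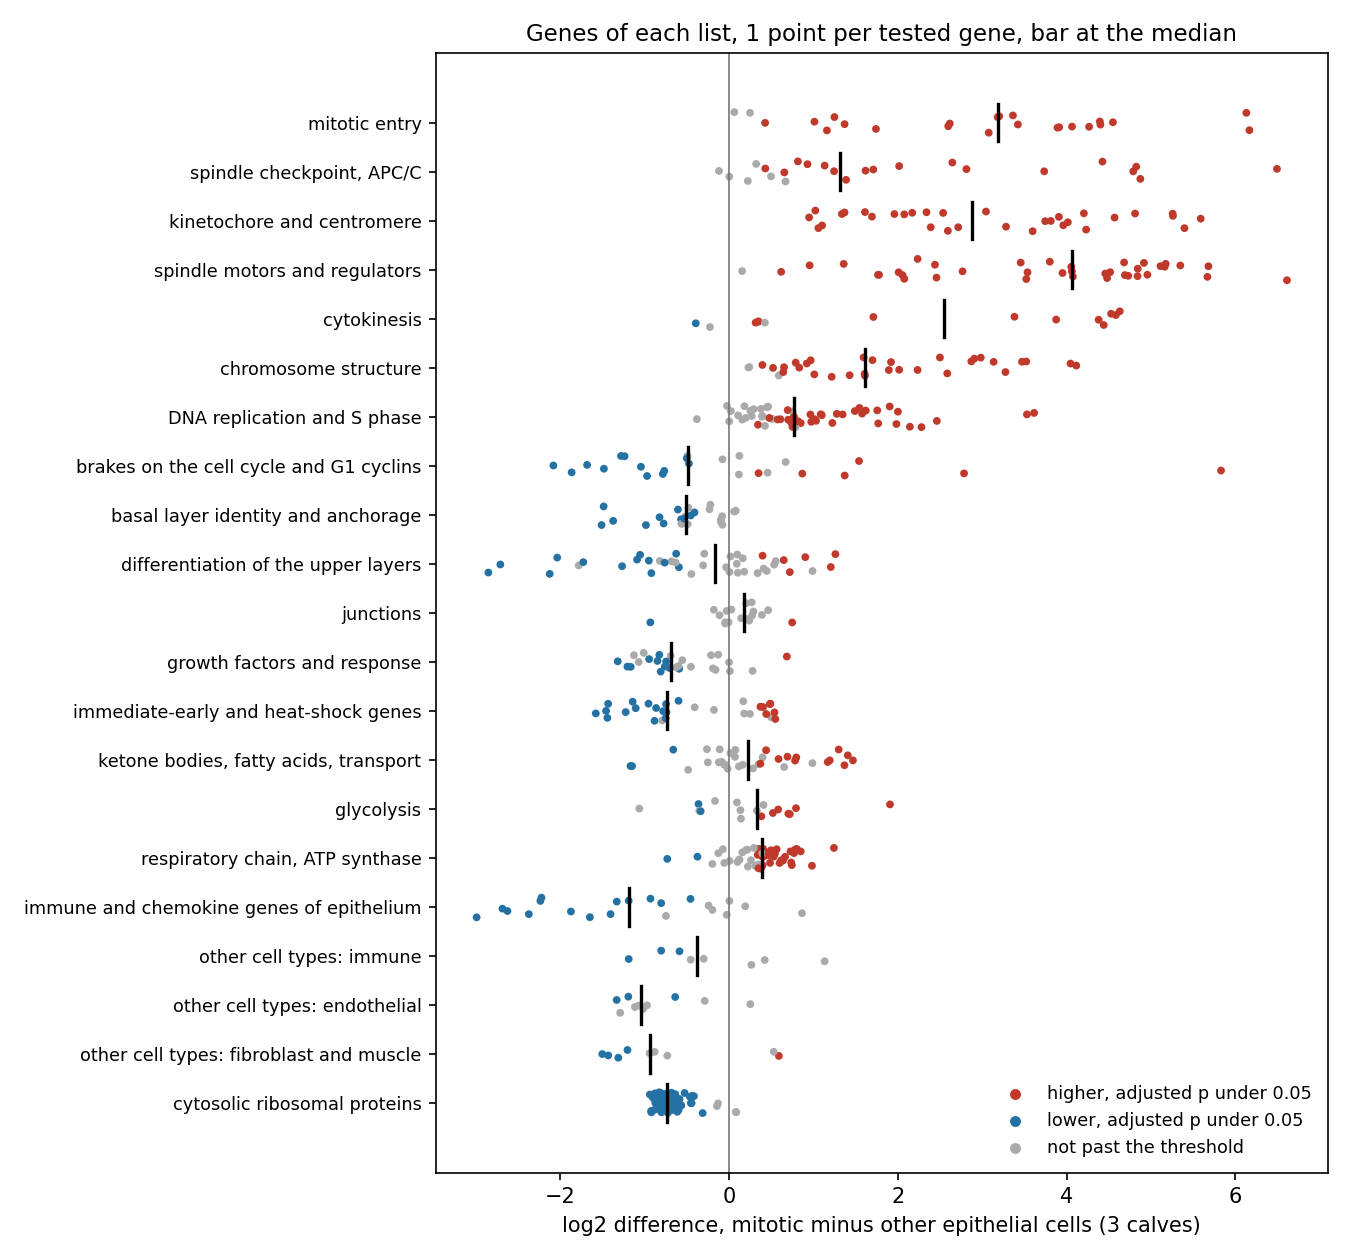
Each point is a tested gene of a list, placed by its log2 difference between mitotic and other epithelial cells over 3 calves, with colour for the direction among genes past an adjusted p of 0.05 and a black bar at the list's median. The medians of the mitotic entry, kinetochore and spindle lists lie at 3.19, 2.88 and 4.06, and that of the ribosomal proteins at -0.73.

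Genes of mitotic entry were higher for 22 of 24 tested, with a median log2 difference of 3.19 against -0.036 over all genes tested. CCNB1, the cyclin that activates CDK1 at mitotic entry, stood at 0.939, 1.58 and 1.31 UMIs per 10000 in the mitotic cells of calves 1, 2 and 3 and at 0.0365, 0.00604 and 0.0131 in the other cells. The classes did not overlap, and the log2 difference was 6.13 ± 0.53 (SE), higher in 3 of 3 calves (edgeR quasi-likelihood test, Benjamini-Hochberg adjusted p = 0.00018). CDK1 itself stood at 0.717, 0.814 and 0.829 against 0.0661, 0.0319 and 0.0318, an 18.2-fold ratio of means, and PLK1, a kinase of mitotic entry and spindle assembly, at 0.651, 0.872 and 0.785 against 0.0422, 0.0256 and 0.0294, a 23.8-fold ratio. Neither gene's classes overlapped. CCNB2, another cyclin of mitosis named after its values were seen, was 72.8-fold higher. CDC25B, a phosphatase that activates CDK1, was 12.1-fold higher and the CDK subunit CKS2 16.4-fold higher. The genes that did not pass, chosen after their values were seen, were ENSA, an inhibitor of a phosphatase that opposes CDK1 (log2 difference 0.064 ± 0.11), and the cyclin CCNF (0.25 ± 0.14).

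The spindle checkpoint and the anaphase-promoting complex gave 18 of 24 genes higher and 6 not passed, with a median of 1.32. CDC20, which activates the complex at anaphase, stood at 1.84, 2.45 and 1.71 per 10000 against 0.0476, 0.00762 and 0.0153. Its log2 difference was 6.49 ± 0.50, higher in 3 of 3 calves with no overlap (edgeR quasi-likelihood test, Benjamini-Hochberg adjusted p = 0.00012). UBE2S, which extends ubiquitin chains for the complex, was more abundant at 6.39, 6.95 and 7.08 against 1.02, 0.916 and 0.925, and BUB3, a checkpoint protein, was 3.48-fold higher. FBXO5, an inhibitor of the complex in interphase, was 7.52-fold higher.

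All 32 kinetochore and centromere genes tested were higher in the mitotic cells, and so were all 32 without any 1 calf. The median log2 difference was 2.88, and 2.56 to 3.57 without 1 calf. CENPA, the histone variant that marks centromeres, stood at 1.25, 1.95 and 1.42 per 10000 in calves 1, 2 and 3 against 0.0571, 0.0194 and 0.0266. Its loader HJURP stood at 0.802, 0.872 and 0.590 against 0.0303, 0.00733 and 0.00906. Both genes were apart in every calf, by 44.8-fold and 48.5-fold in the ratio of means. KNSTRN, a spindle-bound kinetochore protein, was 5.72-fold higher. CENPE, a kinetochore motor named after its values were seen, was 38.7-fold higher.

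Spindle motors, microtubule regulators and Aurora kinases had the highest list median, 4.06, with 37 of 38 genes higher. AURKA, the kinase of the spindle poles, stood at 0.676, 0.765 and 0.927 per 10000 against 0.0270, 0.0114 and 0.0216. The log2 difference was 5.16 ± 0.24, higher in 3 of 3 calves (edgeR quasi-likelihood test, Benjamini-Hochberg adjusted p = 1.8e-05). ASPM, a spindle pole protein named after its values were seen, stood at 1.48, 1.86 and 1.71 against 0.0346, 0.00546 and 0.0134. The kinesin KIF20B and the microtubule polymerase CKAP5 were higher too, with log2 differences of 3.54 and 2.44. TUBA1B, an alpha tubulin, stood at 18.2, 15.0 and 18.2 against 4.43, 2.62 and 4.00, although near-identical tubulin genes can share reads and make its level uncertain. The gene that did not pass was NUMA1, a spindle pole anchor chosen after its values were seen (log2 difference 0.16 ± 0.21).

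Cytokinesis genes were higher for 11 of 14 tested, with a median of 2.55. ANLN, a scaffold of the contractile ring, stood at 0.658, 0.912 and 0.972 per 10000 against 0.0403, 0.0149 and 0.0422, and RACGAP1, part of the central spindle, at 1.38, 1.53 and 1.32 against 0.185, 0.0934 and 0.0942. Both were higher in every calf without overlap. ECT2, which activates RHOA at the division plane, was 15.3-fold higher and the midbody kinase CIT 24.7-fold higher. The septin regulator CDC42EP4 was lower at 0.658, 0.476 and 0.639 against 0.714, 0.601 and 0.729, with a log2 difference of -0.39, lower in 3 of 3 calves (edgeR quasi-likelihood test, Benjamini-Hochberg adjusted p = 0.028). The same test gave CDC42EP4 a Benjamini-Hochberg adjusted p of 0.16 without calf 2 and 0.072 without calf 3, with log2 differences of -0.31 and -0.45 in the remaining 2 of 2 calves. CDC42EP4 also did not pass thinned (-0.44) or with a 5-gene threshold of 20 per 10000 (-0.32). MYH10 (log2 difference 0.43) and SEPTIN9 (-0.22), a myosin and a septin chosen after their values were seen, did not pass. Without calf 1 SEPTIN9 passed as lower (-0.36).

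Chromosome structure genes were higher for 30 of 33 tested, with a median of 1.61. SGO2, which protects centromeric cohesion, stood at 2.93, 3.83 and 2.60 per 10000 against 0.273, 0.266 and 0.299. The condensin subunit NCAPD2 stood at 0.749, 0.765 and 0.815 against 0.106, 0.0884 and 0.0855. Neither gene's classes overlapped. HMGB2, a DNA-bending chromatin protein, was 8.68-fold higher and LBR, an inner nuclear membrane protein, 4.23-fold higher. The cohesin genes STAG1 (log2 difference 0.59), STAG2 (0.23) and PDS5B (0.24), named after their values were seen, did not pass.

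DNA replication and S phase genes were higher for 36 of 56 tested and 20 did not pass, with a median of 0.77. The other epithelial cells here included 2345 rich in S-phase genes. Against epithelial cells low in KRTDAP and not rich in S-phase genes, 54 of 55 were higher, with a median of 1.80, a direction that follows from choosing those cells to be low in 10 of these genes. With a 5-gene threshold of 20 per 10000, 25 of 56 were higher and 3 lower, which were E2F1, MCM6 and SLBP, named after their values were seen (log2 differences -1.31, -0.66 and -0.41). DUT, which keeps uracil out of DNA, stood at 9.89, 8.03 and 8.36 per 10000 in the mitotic cells against 3.83, 1.78 and 2.26, and RRM1, a subunit of ribonucleotide reductase, at 1.62, 1.01 and 1.79 against 0.715, 0.214 and 0.504. Mitotic cells were higher in each calf for both genes. E2F8, a repressor of E2F target genes, was 12.1-fold higher and the polymerase subunit POLA1 2.83-fold higher. PCNA, the sliding clamp, was 2.20-fold higher. MCM5, a subunit of the replicative helicase, did not pass, at 0.916, 0.431 and 0.755 against 1.09, 0.196 and 0.577, and was lower in calf 1 only. Without calf 1 it was higher (log2 difference 0.54).

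Brakes on the cell cycle and G1 cyclins were divided, with 6 genes higher, 12 lower and 6 not passed of 24, and a median of -0.48. CDKN3, a phosphatase that acts on CDKs, stood at 0.488, 0.849 and 0.312 per 10000 against 0.0168, 0.00474 and 0.00482. CDKN2C, an inhibitor of CDK4 and CDK6, was 7.84-fold higher, and CDKN2D, of the same family, 3.33-fold higher. CCND2, a cyclin of G1, was lower at 0.577, 0.494 and 0.579 against 1.56, 1.38 and 1.72, with a log2 difference of -1.68 ± 0.10, lower in 3 of 3 calves (edgeR quasi-likelihood test, Benjamini-Hochberg adjusted p = 3.6e-05). CDKN1C, another CDK inhibitor, was also lower, at 0.0459, 0.116 and 0.110 against 0.192, 0.562 and 0.300. RB1, which holds back E2F factors, was 2.07-fold higher and was named after its values were seen. CCND1 and CDKN1A, named after their values were seen, had log2 differences of -1.86 and -1.28 and were lower in 3 of 3 calves. Without calf 2, 7 genes of the list were lower. Against non-mitotic cells rich in S-phase genes (the second comparison), 7 were higher, 9 were lower and 8 did not pass of 24. The median there was -0.059.

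Basal layer and anchorage genes were lower for 12 of 24 tested and 12 did not pass, with a median of -0.50. COL17A1, a hemidesmosomal collagen, stood at 13.3, 13.2 and 8.63 per 10000 in the mitotic cells against 17.2, 15.2 and 12.8. The mitotic cells were lower in each calf, although the ranges over calves overlapped, and the log2 difference was -0.57 ± 0.085 in 3 of 3 calves (edgeR quasi-likelihood test, Benjamini-Hochberg adjusted p = 0.0018). DLK2, a non-canonical Notch ligand, stood at 0.402, 1.76 and 0.855 against 1.31, 3.09 and 2.33. The authors used DLK2 among their markers of granule cells. The laminin subunit LAMB3 had a log2 difference of -0.98 and the caveolar protein CAV1 one of -1.48. TP63, the master regulator of basal epithelium, stood at 0.482, 0.476 and 0.672 against 0.542, 0.355 and 0.641, and the integrin ITGA6 at 1.19, 1.59 and 1.09 against 1.08, 1.15 and 0.984, and neither passed.

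Genes of the upper layers were mixed, with 6 higher, 13 lower and 21 not passed of 40, and a median of -0.16. Their summed level was higher in the mitotic cells of each calf, at 127, 132 and 148 per 10000 against 113, 108 and 68.9. S100A8, named after its values were seen, was detected in 42.8%, 38.5% and 57.1% of thinned mitotic cells against 25.5%, 20.8% and 15.9%. For KRT6A, named in the same way, these shares were 4.25%, 17.9% and 7.34% against 3.39%, 8.13% and 3.36%. SPINK5, a protease inhibitor of cornified layers, stood at 0.0336, 0.0845 and 0.0233 per 10000 against 0.341, 0.474 and 0.0456, and A2ML1, another, at 0.0235, 0.0311 and 0.0191 against 0.204, 0.184 and 0.0313. The other cells were higher in each calf, least so in calf 3. LY6D and PERP, a membrane protein and a desmosomal one, had log2 differences of -1.05 and -0.62. FABP4, a fatty acid carrier, was higher at 0.421, 0.0889 and 2.03 against 0.145, 0.0680 and 0.582, with a log2 difference of 1.26, and did not pass with a 5-gene threshold of 20 per 10000 (0.77). Without calf 1, 11 genes of the list were higher, without calf 2, 8 were lower and the median was -0.067, and without calf 3, 3 were higher and the median was -0.48. Against epithelial cells with KRTDAP under 10 per 10000 the list's median was 0.15, with 11 genes higher and 9 lower. With a 5-gene threshold of 20 per 10000, 2 were higher and 12 lower, with a median of -0.35. The median was -0.0018 with at most 20% mitochondrial UMIs and -0.41 with no filter on low counts. Against non-mitotic cells rich in S-phase genes (the second comparison), 9 genes were higher and 4 lower of 36 tested. The median there was 0.013.

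Junction genes were higher for 1 and lower for 1 of 18 tested, 16 did not pass, and their median was 0.18. Over all genes tested 29.0% passed. CLDN1, a claudin, was lower at 1.65, 1.68 and 2.36 per 10000 against 1.98, 3.27 and 4.77, and DSC3, a desmosomal cadherin, was higher at 0.491, 0.293 and 0.643 against 0.323, 0.111 and 0.339. Both held in each calf. E-cadherin, CDH1, stood at 0.872, 0.765 and 0.624 against 0.683, 0.564 and 0.413 and occludin, OCLN, at 0.0594, 0.0578 and 0.0445 against 0.0403, 0.0362 and 0.0263, and neither passed. Without calf 1, 4 junction genes were higher, and without calf 3 the median was -0.020.

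Growth factor receptors, ligands and response genes were lower for 11 of 27, higher for 1 and not passed for 15, with a median of -0.69. MYC, a transcription factor of growth, stood at 1.15, 0.796 and 1.58 per 10000 in the mitotic cells against 1.55, 1.42 and 3.21. It was lower in each calf, although the ranges over calves overlapped. The transcription factor SOX4 had a log2 difference of -1.32, the receptor FGFR3 one of -0.82 and the feedback inhibitor SPRY1 one of -1.20. FGFBP1, a secreted carrier of fibroblast growth factors, was the gene that was higher, at 0.879, 1.45 and 2.32 against 0.695, 0.601 and 1.15. EGFR, the receptor of epidermal growth factor named after its values were seen, had a log2 difference of -0.81 and did not pass without calf 3 (-0.62) or thinned (-0.91). FGFBP1 did not pass without calf 2 (log2 difference 0.53) or without calf 3 (0.57). The count of lower genes was 18 without calf 1 and 6 without calf 3.

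Immediate-early and heat-shock genes were lower for 15 of 29 and higher for 7, with a median of -0.74. JUNB, a subunit of AP-1, stood at 5.12, 3.30 and 3.71 per 10000 against 6.92, 11.4 and 11.1, and IER3, an early response gene, at 5.65, 3.54 and 2.16 against 7.45, 6.82 and 6.19. The difference was smallest in calf 1. The chaperone HSP90AA1 was higher at 19.6, 21.0 and 32.1 against 12.4, 11.7 and 19.6, whereas its relative HSP90AB1 was lower at 25.6, 18.9 and 22.5 against 33.5, 26.3 and 28.9. FOS, another AP-1 subunit named after its values were seen, was lower at 4.88, 1.64 and 3.06 against 6.09, 6.72 and 8.36. Without calf 2, 7 genes were lower and 1 higher, and without calf 3, 9 were lower and 3 higher, with a median of -0.48. Against non-mitotic cells rich in S-phase genes (the second comparison), 7 of the 29 were lower, 5 were higher and 17 did not pass. The median there was -0.15.

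Immune and chemokine genes of epithelium were lower for 14 of 21 tested and 7 did not pass, with a median of -1.19. CXCL3, a chemokine that draws neutrophils, stood at 0.174, 0.169 and 0.255 per 10000 in the mitotic cells against 0.679, 0.692 and 1.13. Its classes did not overlap, and the log2 difference was -2.23 ± 0.11, lower in 3 of 3 calves (edgeR quasi-likelihood test, Benjamini-Hochberg adjusted p = 1.8e-05). CXCL5 and CXCL8, related chemokines named after their values were seen, were rare and had log2 differences of -2.99 in 3 of 3 calves and -2.37 in 2 of 3. CXCL8 had 5 UMIs in the mitotic cells and did not pass with DESeq2 (-2.15). The interferon-induced genes were unequal among calves in both classes. ISG15, a ubiquitin-like protein, stood at 0.00336, 0.0623 and 0.301 against 0.0246, 0.357 and 1.70. MX1, an antiviral GTPase, stood at 0.00448, 0.125 and 0.335 against 0.0104, 0.229 and 0.907, with calf 3 highest and calf 1 lowest in both classes. Against non-mitotic cells rich in S-phase genes (the second comparison), 8 genes of the list were lower and 9 did not pass of 17 tested. The median there was -0.23.

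Genes of ketone body synthesis, short-chain fatty acid use and transport were higher for 12 of 34, lower for 3 and not passed for 19, with a median of 0.22. ACAT1, a mitochondrial thiolase of ketone metabolism, stood at 1.37, 1.72 and 1.29 per 10000 against 0.522, 0.440 and 0.517. The classes did not overlap, and the log2 difference was 1.37 ± 0.13, higher in 3 of 3 calves (edgeR quasi-likelihood test, Benjamini-Hochberg adjusted p = 0.00022). BDH1, which makes 3-hydroxybutyrate and was named after its values were seen, stood at 0.243, 0.276 and 0.515 against 0.122, 0.0799 and 0.114. Calf 3 had the largest gap between classes. CA1, a carbonic anhydrase, was 2.51-fold higher, with most of its UMIs in calf 3. The lower genes were the sodium-proton exchanger SLC9A3 (log2 difference -1.17), the sodium pump subunit ATP1B1 (-1.15) and CA3 (-0.66), another carbonic anhydrase, which was named after its values were seen and did not pass without calf 2 (-0.45). Without calf 2, 7 genes of the list were higher, and without calf 3, 6 were, with a median of 0.14. Without calf 1, 5 were lower. With a 5-gene threshold of 20 per 10000, 8 were higher and the median was 0.084, and with no filter on low counts it was 0.092. Against cells low in KRTDAP and not rich in S-phase genes the median was 0.41.

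Glycolysis genes were higher for 7 of 17 and lower for 2, with a median of 0.33. The enzymes TPI1 and PGK1 stood at 4.95, 5.00 and 4.98 per 10000 against 3.29, 2.40 and 2.36 and at 2.31, 2.06 and 2.55 against 1.46, 0.959 and 1.12. Neither gene's classes overlapped. PFKP, a phosphofructokinase, was 4.57-fold higher at a low level. ENO1, enolase, was 1.82-fold higher and did not pass without calf 2 (log2 difference 0.67). The glucose transporter SLC2A1 was lower at 0.251, 0.378 and 0.269 against 0.308, 0.398 and 0.295, and it did not pass without calf 1 (-0.29), without calf 2 (-0.37) or without calf 3 (-0.42), with DESeq2 (-0.36), thinned (-0.51), with split UMIs (-0.32), without the gene limit (-0.27) or at 5-gene thresholds of 5 and 20 per 10000 (-0.31 and -0.37). GAPDH, named after its values were seen, had a log2 difference of -0.33, was lower in 2 of 3 calves and did not pass without calf 1 (-0.25) or calf 2 (-0.28), with DESeq2 (-0.33), with at least 2 of the 5 genes detected (-0.33), at 20% mitochondrial UMIs (-0.31), without the gene limit (-0.22), at a 5-gene threshold of 5 per 10000 (-0.23) or against cells not rich in S-phase genes (-0.27). Without calf 2, 3 genes of the list were higher, and without calf 3 the median was 0.22. Against non-mitotic cells rich in S-phase genes (the second comparison), 1 glycolysis gene was higher and 4 were lower of 15 tested. The median there was -0.14.

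Nuclear genes of the respiratory chain and ATP synthase were higher for 30 of 50, lower for 2 and not passed for 18, with a median of 0.39. ATP5F1B, the catalytic subunit of ATP synthase, stood at 7.71, 7.96 and 9.81 per 10000 against 4.40, 3.55 and 4.45. NDUFV1 of complex I stood at 3.39, 2.52 and 3.64 against 2.01, 1.27 and 1.55. The mitotic cells were higher without overlap for both. NDUFB2, also of complex I, was 2.26-fold higher. CYCS, cytochrome c, was named after its values were seen and was 2.65-fold higher. The lower genes were ATP5MC2, a ring subunit of ATP synthase, at 3.08, 3.60 and 3.56 against 3.92, 5.62 and 5.54, and NDUFB10 of complex I (log2 difference -0.37), named after its values were seen, which did not pass without calf 2 (-0.38). Without calf 2, 15 genes of the list were higher, and without calf 3, 16. With the threshold on the summed mitotic genes raised to 20 per 10000, 17 were higher and the median was 0.29. Against non-mitotic cells rich in S-phase genes (the second comparison), 3 of the 50 were higher, 1 was lower and 46 did not pass. The median there was 0.028.

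Cytosolic ribosomal protein genes were lower for 70 of 74 tested, with a median of -0.73. Together they took 2715, 2783 and 2323 UMIs per 10000 in the mitotic cells of calves 1, 2 and 3 and 3764, 3999 and 3646 in the other epithelial cells. The classes did not overlap. RPLP1, an acidic protein of the large subunit stalk, stood at 139, 147 and 118 against 220, 248 and 204, with a log2 difference of -0.92 ± 0.074, lower in 3 of 3 calves (edgeR quasi-likelihood test, Benjamini-Hochberg adjusted p = 0.00013). RPL10 and RPLP0 of the large subunit and RPS7 of the small one had log2 differences of -0.88, -0.83 and -0.86. RPS16 (-0.14), RPS27L (0.081) and RPL4 (0.088), named after their values were seen, were among those that did not pass. Ribosomal proteins have many near-identical processed copies in the genome, so single levels are uncertain. These are shares of all UMIs and not amounts per cell.

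Outside the lists, the 12 largest differences each way were taken among genes that passed, moved alike in 3 of 3 calves and averaged at least 20 CPM (UMI counts scaled to a common library size) in the higher class. PIMREG, a mitotic regulator, stood at 0.351, 0.760 and 0.250 per 10000 against 0.00568, 0.000862 and 0.00131, with a log2 difference of 7.33 ± 0.49, higher in 3 of 3 calves (edgeR quasi-likelihood test, Benjamini-Hochberg adjusted p = 6e-05). DEPDC1 was 65.8-fold higher, CDCA3, which helps degrade WEE1, 52.5-fold, and the MAX partner MXD3 39.4-fold. IQGAP3, TROAP, PBK, CDCA2, TNFAIP8L1, KPNA2, SPDL1 and PCLAF followed with log2 differences from 3.51 for PCLAF to 5.03 for IQGAP3. PCLAF, a PCNA-binding protein, stood at 2.90, 2.13 and 3.00 against 0.555, 0.0545 and 0.252. The largest negative difference was -2.74 for C15H11orf96. RGS4, which quenches G protein signals, stood at 0.166, 0.116 and 0.0509 against 0.438, 0.524 and 0.252, and GRO1, a chemokine, at 0.0897, 0.0445 and 0.142 against 0.266, 0.324 and 0.460. COL27A1, ADSS1, PARM1, DIPK1B, TCEA3, SMOC2, C6H4orf48, FSTL1 and IRF1 were lower in 3 of 3 calves, with log2 differences from -2.01 for COL27A1 to -1.80 for IRF1, an interferon-response factor.

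Markers of other cell types were low in the mitotic cells, and their summed levels were below those of the other epithelial cells in each calf. PTPRC, PECAM1 and COL3A1 were at 0 by the rule, and the mitotic cells held 2 UMIs of CD3E, 21 of VWF and 11 of COL1A1 in all. The 10 immune genes, of which 8, 7 and 10 were above 0, summed to 0.309, 0.405 and 0.740 per 10000 in the mitotic cells against 0.337, 0.576 and 1.10, led by RAC2 in calves 1 and 2 and by CD74 in calf 3. The 10 endothelial genes, of which 7, 10 and 9 were above 0, summed to 0.173, 0.351 and 0.280 against 0.292, 0.425 and 0.449, led by RAMP2. The 11 fibroblast and muscle genes, of which 9, 8 and 10 were above 0, summed to 2.99, 1.79 and 1.36 against 4.83, 4.42 and 3.24, mostly from DCN at 2.59, 1.33 and 0.912. Of the genes tested, 3 of 8 immune, 3 of 10 endothelial and 4 of 9 fibroblast and muscle genes were lower, with medians of -0.38, -1.04 and -0.94. The endothelial median was -0.60 without calf 3 and -1.60 with split UMIs. The immune median ran from -1.08 with a 5-gene threshold of 20 per 10000 to 0.23 with split UMIs, and the fibroblast and muscle median was -0.62 with cells thinned. The immune genes lower were CD74, BOLA-DRA and RAC2, of which BOLA-DRA did not pass without calf 3 (log2 difference -1.52) and RAC2 did not pass without calf 2 (-0.43) or calf 3 (-0.61). With cells thinned neither passed (-0.78 and -0.30). CORO1A, of leukocytes, did not pass (1.13) and was higher without calf 3 (2.77). The endothelial genes lower were EGFL7, RAMP2 and PLVAP, of which PLVAP did not pass without calf 2 (-1.16), calf 3 (-1.37) or doublets (-0.85), thinned (-1.92) or with a 5-gene threshold of 20 per 10000 (-0.79). CLDN5 did not pass (-1.01) and was lower without calf 2 (-2.02). DCN, MYL9 and SPARC had log2 differences of -1.43, -1.31 and -1.50. PAM, a peptide-processing enzyme of the fibroblast list, was higher at 0.228, 0.147 and 0.267 against 0.127, 0.112 and 0.137 and did not pass without calf 3 (0.43), thinned (0.63), with split UMIs (0.52) or with a 5-gene threshold of 20 per 10000 (0.44). The part of free RNA from these cell types in the results was not tested.

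The second comparison set the mitotic cells against S-rich epithelial cells. These cells held 10 S-phase genes (PCNA, MCM2 to MCM7, TYMS, RRM2 and GINS2) at 10 or more per 10000 but were not mitotic. These numbered 1152, 193 and 1000 in calves 1, 2 and 3, with median depths of 13171, 11079 and 11518 UMIs. Of 10327 genes tested, 1276 were higher in the mitotic cells (12.4%) and 1567 lower (15.2%), with a median of -0.0084. Without calf 1 these were 513 and 524, with DESeq2 536 and 711, and without the calf as a block 167 and 32.

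Spindle genes were higher for 36 of 37 tested in that comparison (median 2.48), kinetochore genes for 25 of 32 (1.28), chromosome structure genes for 26 of 33 (0.73), mitotic entry genes for 16 of 24 (1.44), checkpoint genes for 12 of 24 (0.51) and cytokinesis genes for 10 of 13 (2.10). CDC20 stood at 0.0802, 0.0269 and 0.0602 per 10000 in the S-rich cells of calves 1, 2 and 3, against 1.84, 2.45 and 1.71 in the mitotic cells. CDK1 stood at 0.141, 0.139 and 0.115 against 0.717, 0.814 and 0.829, with a log2 difference of 2.46 ± 0.12, higher in 3 of 3 calves (edgeR quasi-likelihood test, Benjamini-Hochberg adjusted p = 7.5e-11). Neither gene's classes overlapped. PKMYT1, a kinase that restrains CDK1, and CENPU, a centromere protein, were the genes of these lists that were lower, with log2 differences of -0.86 and -0.68, and were named after their values were seen. PIMREG, ASPM, CDKN3, TNFAIP8L1 and CCNB1 were among the largest positive differences, from 4.56 for CCNB1 to 7.66 for PIMREG, which had 0.00272 per 10000 in the S-rich cells of calf 1 and no UMI in those of calves 2 and 3. CCNB2, named after its values were seen, had a log2 difference of 4.51.

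S phase genes outside the 10 were lower in the mitotic cells for 28 of 45 tested, with a median of -0.57, a direction that follows how the S-rich cells were selected. CDC6, which loads the helicase at origins, stood at 0.110, 0.0489 and 0.110 per 10000 against 0.307, 0.304 and 0.337, and DTL, which marks CDT1 for destruction, at 0.143, 0.0489 and 0.112 against 0.323, 0.304 and 0.397. Both were lower without overlap. The genes higher in the mitotic cells were DUT, E2F8 and RAD51AP1, a recombination protein, with log2 differences of 0.32, 1.08 and 1.23, named after their values were seen. DUT did not pass without calf 3 (0.28) or with a 5-gene threshold of 20 per 10000 (0.20), nor E2F8 without calf 1 (0.72). Among the 6 largest negative differences were also CDCA7, a chromatin factor, ACACB, an acetyl-CoA carboxylase, CCND1 and PSMC3IP, a recombination cofactor. CDCA7 stood at 0.130, 0.0800 and 0.187 against 0.594, 0.725 and 0.946, and ACACB was 5.23-fold lower. CCND2, named after its values were seen, was lower too (log2 difference -1.34).

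Basal layer genes were lower than in the S-rich cells for 11 of 24 tested, with a median of -0.35. COL17A1 had a log2 difference of -0.37, was lower in 3 of 3 calves and did not pass without calf 1 (-0.35). ITGA6 did not pass, at 1.19, 1.59 and 1.09 per 10000 against 1.08, 1.69 and 1.09. TP63 did not pass either, at 0.482, 0.476 and 0.672 against 0.485, 0.381 and 0.616. ACAT1, named after its values were seen, stood at 1.37, 1.72 and 1.29 against 0.568, 0.506 and 0.642. It was higher in 3 of 3 calves, with a log2 difference of 1.18. CA1 (0.54), CDH1 (0.35), ERBB2 (0.34), a receptor kinase, and the exchanger SLC9A2 (0.86), also named after their values were seen, passed as higher, in 3 of 3 calves for the first 3 and in 2 of 3 for SLC9A2, which was lower in calf 2 at 0.0133 against 0.0358 per 10000. Without calf 1 none of the 4 passed, with log2 differences of 0.40, 0.42, 0.32 and 0.89, and without calf 3 neither ERBB2 (0.31) nor SLC9A2 (0.36) did. None of the 4 passed with DESeq2 (0.61, 0.35, 0.32 and 0.53), nor did SLC9A2 with a 5-gene threshold of 20 per 10000 (0.68) or ERBB2 with one of 5 per 10000 (0.26) or without the gene limit (0.22). Over all genes tested in this comparison, 12.4% were higher and 15.2% lower, which is the background for the lists that follow. The list of ketone body, short-chain fatty acid and transport genes had 4 higher and 6 lower of 34 tested, with a median of 0.091. Without calf 1 these were 2 and 4, without calf 2 10 and 7, and without calf 3 4 and 3. In the list of growth factor receptors, ligands and response genes, of 24 tested, ERBB2 alone was higher, and FGFR3 (-0.62), SPRY1 (-0.51), MYC (-0.39) and ID3 (-0.34), named after their values were seen, were lower, in 2 of 3 calves for MYC and in 3 of 3 for the others. MYC did not pass without calf 1 or without calf 3 (-0.32 in each), nor ID3 without calf 1 (-0.18), and 8 were lower without calf 2. With DESeq2 neither SPRY1 (-0.52) nor ID3 (-0.33) passed, without the gene limit ID3 did not (-0.13), and with a 5-gene threshold of 20 per 10000 MYC did not (-0.21). Ribosomal protein genes were lower for 71 of 74, with a median of -0.38, and took 3406, 3115 and 2950 UMIs per 10000 in the S-rich cells. Without calf 1, 2 of the 74 were lower (median -0.34), and without calf 3, 42. RPL4 (-0.13), RPS16 (-0.15) and RPSA (-0.22), named after their values were seen, did not pass, and RPSA passed as lower without calf 2 (-0.28). RPLP0, named in the same way, had a log2 difference of -0.47 and did not pass without calf 1 (-0.41).

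The mitotic cells themselves were not uniform. By the same 10 S-phase genes, 339, 50 and 170 of them were S-rich in calves 1, 2 and 3 (49.6%, 24.6% and 44.5%) and 344, 153 and 212 were S-poor. The S-rich were deeper, with median depths of 15225, 12228 and 13033.5 UMIs against 11116, 9887 and 12779.5, and the part of depth was not tested. Of 8657 genes tested, 823 were higher in S-rich mitotic cells (9.51%) and 749 lower (8.65%), with a median of -0.020. Without calf 1 these were 410 and 277, without calf 3 477 and 274, with DESeq2 271 and 169, with a 5-gene threshold of 20 per 10000 503 and 403, and without the calf as a block 99 and 9. Without calf 2, 485 were lower.

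All 42 S phase genes tested outside the 10 were higher in S-rich mitotic cells, with a median of 1.63, as the split selected for them. CDC6 stood at 0.182, 0.195 and 0.234 per 10000 in the S-rich cells of calves 1, 2 and 3 and at 0.0223, 0 and 0.0114 in the S-poor cells. TK1, a thymidine kinase, stood at 1.63, 1.12 and 1.71 against 0.406, 0.184 and 0.332, and BRCA1, a DNA repair protein, at 0.562, 0.515 and 0.617 against 0.138, 0.0475 and 0.114. The classes did not overlap for any of these. ZNF367, TCF19 and DTL were higher too, by 5.83-fold, 5.04-fold and 8.26-fold, and so was E2F1, an activator of S phase genes named after its values were seen, by 12.4-fold.

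Mitotic genes were divided between the S-rich and the S-poor mitotic cells. Mitotic entry genes were higher in the S-rich for 7 and lower for 7 of 23 tested, and spindle genes for 7 and 10 of 37. Kinetochore genes were higher for 16 and lower for 4 of 32, and chromosome structure genes for 15 and 4 of 33. Checkpoint genes were higher for 6 and lower for 3 of 23, and cytokinesis genes for 1 and 3 of 13. Over all genes tested, 9.51% were higher and 8.65% lower. Without calf 3, 4 entry genes, 3 spindle genes and 1 chromosome structure gene were lower, and without calf 1, 2 of the last. CCNB1 stood at 0.560, 0.621 and 0.531 per 10000 in the S-rich and at 1.40, 1.90 and 1.93 in the S-poor mitotic cells, a log2 difference of -1.56 ± 0.12, lower in 3 of 3 calves (edgeR quasi-likelihood test, Benjamini-Hochberg adjusted p = 1.2e-18). CENPA stood at 0.625, 0.887 and 0.627 against 2.01, 2.31 and 2.05, and CDC20 at 1.44, 1.69 and 0.985 against 2.32, 2.70 and 2.29. The S-poor cells were higher in each calf for all of these. CDK1 stood at 0.799, 0.692 and 0.765 against 0.618, 0.854 and 0.880, and did not pass. AURKA did not pass either, at 0.639, 0.799 and 0.694 against 0.720, 0.754 and 1.11. AURKA did pass as lower with a 5-gene threshold of 5 per 10000 (log2 difference -0.47), without the gene limit (-0.45) and without doublets (-0.35). PLK1 was lower in the S-rich (log2 difference -0.59) and did not pass without calf 3 (-0.37).

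**Figure D3:**
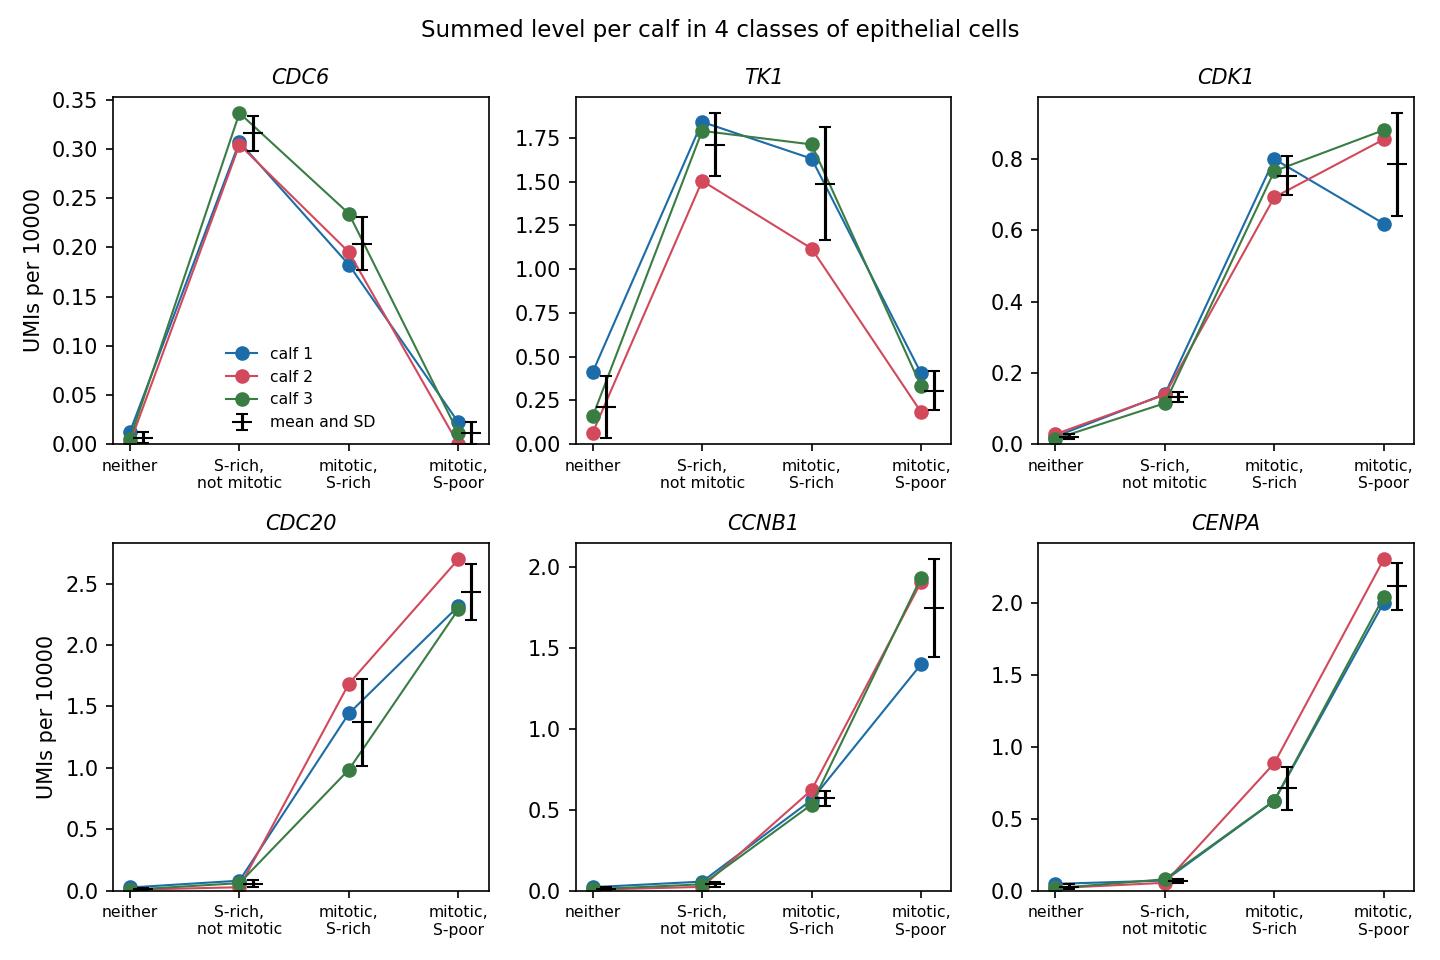
Each panel gives the summed level of a gene in UMIs per 10000, by calf and as mean with SD over 3 calves, in cells low in KRTDAP that were neither S-rich nor mitotic, S-rich cells that were not mitotic, S-rich mitotic cells and S-poor mitotic cells. Lines join the values of a calf and show no measured course in time. CDC6 and TK1 are high in the S-rich classes, CDC20, CCNB1 and CENPA are highest in S-poor mitotic cells, and CDK1 is high in both mitotic classes.

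Other genes of mitosis, named after their values were seen, showed both directions. ASPM stood at 0.863, 0.994 and 0.957 per 10000 in the S-rich against 2.22, 2.15 and 2.30 in the S-poor mitotic cells, and CCNB2 at 0.830, 1.12 and 0.498 against 1.66, 2.40 and 1.25. AURKB, the kinase of the chromosomal passenger complex, was higher in the S-rich at 2.13, 2.31 and 1.75 against 1.46, 1.36 and 1.31, and NUSAP1, a microtubule-bundling protein, at 2.48, 3.50 and 2.16 against 1.61, 1.85 and 1.58. Each held in 3 of 3 calves. HMMR, CENPE and CDKN3 were lower in the S-rich, with log2 differences of -0.72, -0.77 and -1.86. HJURP was lower (-0.47) and did not pass without calf 1 (-0.55) or calf 3 (-0.43), with DESeq2 (-0.50) or with a 5-gene threshold of 20 per 10000 (-0.35), and the CDK1-restraining kinase WEE1 was higher (0.61) and did not pass without calf 1 (0.55). Among the largest negative differences were TNFAIP8L1 (log2 difference -2.66), the tubulin TUBA1C (-2.37), the cyclin CCNB3 (-2.36), the galectin LGALS1 (-2.10), PIMREG (-2.00) and the histone HIST1H2AC (-1.90), where tubulin and histone copies can share reads. ACAT1 stood at 1.03, 1.15 and 0.947 against 1.79, 1.91 and 1.56, lower in the S-rich in each calf. ITGA6 was also lower, at 0.998, 1.10 and 0.899 against 1.43, 1.76 and 1.23. COL17A1 and TP63 did not pass, with log2 differences of 0.043 and -0.16. KRT6A, a keratin, and S100A8, a calcium-binding protein, were lower, with log2 differences of -0.78 and -0.43, and KRT6A did not pass with a 5-gene threshold of 20 per 10000 (-0.40) nor S100A8 without calf 3 (-0.43). Upper layer genes were lower in the S-rich for 11 of 28 tested, with a median of -0.35, and for 7 without calf 1 and 6 without calf 3.

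Some genes differed more among calves than between classes. KRT19, a simple-epithelium keratin, stood at 6.96, 1.23 and 0.823 per 10000 in the mitotic cells of calves 1, 2 and 3 and at 5.21, 1.05 and 0.618 in the other epithelial cells, and did not pass. Calf 1 was highest in both classes. Against the S-rich cells KRT19 was higher (log2 difference 0.48) in 3 of 3 calves. KRT19 was lower in S-rich than in S-poor mitotic cells (log2 difference -0.40), in 2 of 3 calves, and did not pass without calf 1 (-0.061), without calf 3 (-0.38), with DESeq2 (-0.34) or with a 5-gene threshold of 20 per 10000 (-0.35). IFI6, an interferon-induced gene, was highest in calf 3 at 0.539 against 1.76 per 10000, and its mitotic cells in calf 1 held no UMI. The other cells of calf 1 stood at only 0.00071 per 10000, so that calf carries almost no information on IFI6. IFI6 passed as lower in the mitotic cells (log2 difference -1.65), and the count of 3 of 3 calves includes calf 1. Calves form a single group, so no test of differences among calves was made.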

How the data were processed

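Droplet libraries of rumen from 3 newborn calves were used. The authors deposited raw UMI counts per gene and barcode made with Cell Ranger 3.1.0 on the ARS-UCD1.2 genome, for 27270 genes. Members and gene lists were chosen with earlier results of these data known. UMIs were summed per calf and class, and levels are UMIs per 10000 of that sum. Classes were compared with edgeR 4.0.16 (R 4.3.3) by its quasi-likelihood test (TMM, filterByExpr, two-sided, Benjamini-Hochberg adjustment over all genes tested, threshold 0.05), with the calf as a block because both classes come from the same animal. Genes read by the mitotic rule got no test, and the 10 S-phase genes got none in the second and the last comparison, whose classes they helped to choose. They were tested in the first comparison, and also in its alternative against cells not rich in S-phase genes, where they had helped to choose those cells. Named genes were the up to 4 of each list with the smallest p and its largest passing opposite, the 12 largest differences each way outside the lists (6 from all genes in the later comparisons) among passing genes at 20 CPM or more that moved alike in 3 of 3 calves, label-check genes, and others marked in the text as named after their values were seen. Doublets were scored with Scrublet in scanpy 1.11.5 (0.8% per 1000 kept barcodes) and kept. Python 3.11.15, numpy 2.4.6, scipy 1.17.1, pandas 2.3.3 and matplotlib 3.10.9 served for the rest. DESeq2 1.42.0, other thresholds, thinning to 2000 UMIs and leaving out each calf were tried as alternatives. Of the lists' symbols, 19 had no match among the deposited gene names and were left out. Results for some named genes are not reported here.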

Additional observations from a re-analysis of the deposited data

Results flagged for a closer look

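Barcodes above the limit of 4000 genes were left out of the comparisons, except in the alternatives without that limit, and many met every other part of the rule for mitotic cells. These were 443 of 705 such epithelial barcodes in calf 1 (62.8%), 21 of 147 in calf 2 (14.3%) and 170 of 509 in calf 3 (33.4%). Their class had median depths of 27983, 30855 and 27040 UMIs. Whether they were single cells was not tested.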

How the results depend on the processing

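Of 195 passing results for named genes over the 3 comparisons, 164 passed in each alternative that tested them, apart from the fit without the calf as a block, and none changed direction there; 81 of 2703 such values missed the threshold. The later comparisons were not run thinned, with split UMIs, with at least 2 of the 5 genes, at 20% mitochondrial UMIs or with other choices of the other epithelial cells. Without the replicate block 104 of the 195 did not pass, and the counts were 296 higher and 105 lower against the other epithelial cells, 167 and 32 against the S-rich cells, and 99 and 9 between the mitotic classes. Leaving out 1 calf gave 951 to 1810 higher and 1087 to 1996 lower, 513 to 1433 and 524 to 1695, and 410 to 637 and 274 to 485. Thinning to 2000 UMIs gave 862 and 902 in the first comparison. DESeq2 gave 536 and 711 in the second and 271 and 169 in the last, where a 5-gene threshold of 20 per 10000 gave 503 and 403. The mean share ran from 4.52% to 9.96% over the other settings and from 3.46% to 9.72% without 1 calf. Of 33 results that did not pass, 13 passed in at least 1 alternative, for CLDN5, CORO1A, E2F1, EPCAM, MCM5, MCM6, MYH10, OCLN, SEPTIN9, SLBP and STAG1 in the first comparison, RPSA in the second and AURKA in the last. Genes that turned direction had not passed. In the first comparison, leaving out 1 calf gave log2 differences from -0.050 to 2.77 for CORO1A, -0.63 to 0.35 for E2F1, -0.012 to 0.11 for ITGA6, -0.096 to 0.54 for MCM5, -0.12 to 0.27 for MCM6, -0.064 to 0.26 for NUMA1, -0.027 to 0.18 for RPL4 and -0.21 to 0.048 for TP63. At a threshold of 20 per 10000 they were -0.029 for ENSA, -0.28 for MCM5, -0.66 for MCM6, -0.047 for RPS27L and -0.41 for SLBP, and at 5 per 10000 it was 0.25 for E2F1. Thinned, they were 0.084 for E2F1, -0.016 for ENSA, -0.060 for ITGA6 and -0.052 for NUMA1. It was -0.015 for ITGA6 with split UMIs. Without the gene limit it was -0.021 for MCM5, -0.23 for MCM6 and -0.14 for SLBP. With no filter on low counts MCM6 was -0.021, and against cells low in KRTDAP and not rich in S-phase genes E2F1 was 1.73. Against the S-rich cells TP63 was 0.0083 with DESeq2, 0.030 without the block, -0.049 to 0.12 without 1 calf and 0.097 at 20 per 10000. Between the mitotic classes CDK1 was -0.027 with DESeq2, -0.065 without the block, -0.27 to 0.16 without 1 calf, -0.13 without the gene limit and -0.013 without doublets, and COL17A1 was -0.045 to 0.094 without 1 calf. The cause was not tested. Genes with few UMIs in a class are limited by depth.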
